A study of Homo sapiens with 18 samples.

Results

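Paclitaxel was compared with no drug in MDA-MB-231 cells at 20% oxygen, and the comparison rested on 6 of the 18 arrays of the series. The 6 arrays were 3 of control cells (N_CTL) and 3 of cells with 50 µM paclitaxel (N_TAX), chosen by the array titles. MDA-MB-231 is an established human breast cancer cell line. All the cells, controls included, spent 16 hours in medium without serum, and their RNA was read on Affymetrix arrays of the type HG-U133 Plus 2.0. The other 12 arrays held cells at 1% oxygen and cells with 10 µM epirubicin. The comparison asked which transcripts followed the drug when oxygen was not limiting. One cell line, one dose and one time were measured, and the study describes 3 independent experiments per condition.

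Paclitaxel binds β-tubulin inside assembled microtubules and keeps them from shortening. A dividing cell needs microtubules that grow and shorten to attach its chromosomes, so the drug is best known for holding cells in mitosis through the spindle checkpoint. Microtubules also carry organelles and vesicles between divisions, and their state is read by several stress pathways. In the integrated stress response, kinases that sense stress slow translation in general and favour the transcription factor ATF4, which turns on amino acid supply genes and a second wave of factors that includes DDIT3 and ATF3.

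The labels of the arrays numbered 3 disagreed on the drug, not on the oxygen level. The source name of control array 3 gave epirubicin, and that of paclitaxel array 3 gave control cells. Over 54613 probe sets, control array 3 correlated at 0.9984 to 0.9987 with control arrays 1 and 2 and at 0.9575 to 0.9774 with the epirubicin arrays 1 and 2 of the same oxygen level. Paclitaxel array 3 correlated at 0.9968 to 0.9981 with paclitaxel arrays 1 and 2 and at 0.9875 to 0.9887 with control arrays 1 and 2. Both arrays were grouped by title, and the values from arrays 1 and 2 alone, which had no such conflict, are given beside the others. Between 42.2% and 42.5% of probe sets were present on an array, that is above a linear signal of 8.84 (3.14 on the log2 scale). The 3′ minus 5′ difference of the ACTB control probe sets was -0.04 to 0.04 on the control arrays and 0.11 to 0.24 on the paclitaxel arrays, and its part in the results was not tested.

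The label was checked against markers. Of 13 mesenchymal and basal markers with a named probe set, 8 were present on all 6 arrays, among them the intermediate filament VIM with 15.60 to 15.71. The basal keratins KRT5 and KRT14 lay at the floor of the scale on every array, as did TWIST1 and CDH2. Of 14 luminal and epithelial markers, 10 were present on all 6 arrays, while the receptors ESR1 and PGR, the factor FOXA1 and the cadherin CDH1 were below the presence threshold throughout. The summed log2 signal of the luminal list was 96.52 to 98.01 on the control arrays and 94.52 to 95.05 on the paclitaxel arrays, and that of the mesenchymal list 111.23 to 111.85 and 110.03 to 111.39. Of 9 leukocyte, endothelial and liver markers, 2 were present. The summed log2 signal of this list was 24.91 to 25.61 on the control arrays and 22.78 to 23.29 on the paclitaxel arrays. Its member PECAM1, an endothelial and leukocyte adhesion molecule, fell by 2.18 (limma adjusted p = 3.94e-06), from 5.96, 5.95 and 6.60 to 3.78, 3.93 and 4.27. The part of these markers in the results was not tested.

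The promoters of 5 genes are shown because each holds the best-known DNA element of a gene list whose called members all moved one way. They are RefSeq sequences (GRCh38.p14) of 300 bases, from 250 before to 50 after the transcription start, written 5′ to 3′ along the gene, with the matched element in capitals whichever strand it lies on. Each gene is the called member with the largest change among those whose promoter holds the element. The elements searched were the C/EBP-ATF response element TGATGNAA (ATF3), the ER stress response element, read as CCAAT and CCACG with 9 bases between them (ERO1B), the interferon-stimulated response element, read as GAAA and GAAA with 2 bases between them (ISG20), the antioxidant response element TGACNNNGC (GCLM) and the E2F site TTTNNCGC (GINS2), each on both strands. A sterol response element, read as ATCAC and CCAC with 1 base between them, was searched too.
ATF3, chr1:212565157-212565456, plus strand: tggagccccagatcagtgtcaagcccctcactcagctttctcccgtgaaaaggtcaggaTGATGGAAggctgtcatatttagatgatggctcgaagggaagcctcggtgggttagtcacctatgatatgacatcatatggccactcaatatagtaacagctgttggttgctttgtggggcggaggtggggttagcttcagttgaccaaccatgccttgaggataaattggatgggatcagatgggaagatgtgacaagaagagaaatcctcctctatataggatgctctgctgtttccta
ERO1B, chr1:236281909-236282208, minus strand: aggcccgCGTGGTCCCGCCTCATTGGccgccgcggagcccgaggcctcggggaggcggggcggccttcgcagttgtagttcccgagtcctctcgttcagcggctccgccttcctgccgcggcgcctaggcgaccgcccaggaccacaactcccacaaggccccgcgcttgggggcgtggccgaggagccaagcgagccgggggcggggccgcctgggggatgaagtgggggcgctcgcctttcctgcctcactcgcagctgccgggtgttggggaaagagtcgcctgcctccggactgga
ISG20, chr15:88638766-88639065, plus strand: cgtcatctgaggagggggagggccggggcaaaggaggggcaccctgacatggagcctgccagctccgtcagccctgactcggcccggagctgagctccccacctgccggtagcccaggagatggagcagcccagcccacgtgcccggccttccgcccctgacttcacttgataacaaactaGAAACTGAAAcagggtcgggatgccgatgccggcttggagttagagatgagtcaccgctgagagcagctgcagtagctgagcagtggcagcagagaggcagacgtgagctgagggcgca
GCLM, chr1:93909381-93909680, minus strand: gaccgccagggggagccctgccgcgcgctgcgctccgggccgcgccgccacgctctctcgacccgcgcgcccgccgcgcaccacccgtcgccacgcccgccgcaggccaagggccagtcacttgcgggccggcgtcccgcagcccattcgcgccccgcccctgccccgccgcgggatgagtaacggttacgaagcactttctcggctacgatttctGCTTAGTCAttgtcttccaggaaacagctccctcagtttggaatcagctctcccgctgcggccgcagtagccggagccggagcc
GINS2, chr16:85688905-85689204, minus strand: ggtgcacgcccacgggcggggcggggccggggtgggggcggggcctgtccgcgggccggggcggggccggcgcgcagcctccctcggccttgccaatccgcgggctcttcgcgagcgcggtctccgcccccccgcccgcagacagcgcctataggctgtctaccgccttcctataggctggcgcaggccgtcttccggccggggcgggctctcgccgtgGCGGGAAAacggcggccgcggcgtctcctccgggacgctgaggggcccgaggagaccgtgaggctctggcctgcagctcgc
The interferon element was in 13 of 18 promoters of tested interferon-stimulated genes (72.2%) and in 3.65% of all 27305 promoters searched. The ER stress element was in 6 of 20 promoters of the ER list (30%) and in 0.0806% of all, and the E2F site in 17 of 30 promoters of the replication list (56.7%) and in 6.82% of all. The C/EBP-ATF element was in 4 of 21 promoters of the amino acid list (19.0%), in 2 of 17 of the integrated stress response list (11.8%) and in 3.75% of all. The antioxidant element was in 5 of 16 promoters of the NRF2 list (31.2%) and in 13.5% of all. The sterol element was in 1 of 19 promoters of the sterol list (5.26%), in none of the 14 with a promoter that fell, and in 0.168% of all. No match overlapped a match of another of these elements in the promoters shown. A match is a description of letters and not of binding, and the lists hold genes that were in part collected through such elements.

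Paclitaxel changed a large part of the transcriptome. Of 11021 genes tested, each represented by its brightest probe set, 1961 were higher (17.8%) and 2631 were lower (23.9%) with the drug at an adjusted p under 0.05 in limma. With arrays 1 and 2 alone, 1026 genes were higher (9.31%) and 1702 lower (15.4%), and by probe set 2337 (9.91%) and 3379 (14.3%). On the level of probe sets, 4363 of 23572 rose and 5151 fell, (18.5% and 21.9%), 1239 and 1358 of them by at least 2-fold and 53 and 36 by at least 8-fold. All 9514 probe sets called by title had the same direction in arrays 1 and 2 alone, and 5579 of them were called there too. The median log2 change over all genes was -0.02. These are levels in bulk RNA, in which fewer cells in a state and less RNA per cell cannot be told apart.

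**Figure D1:**
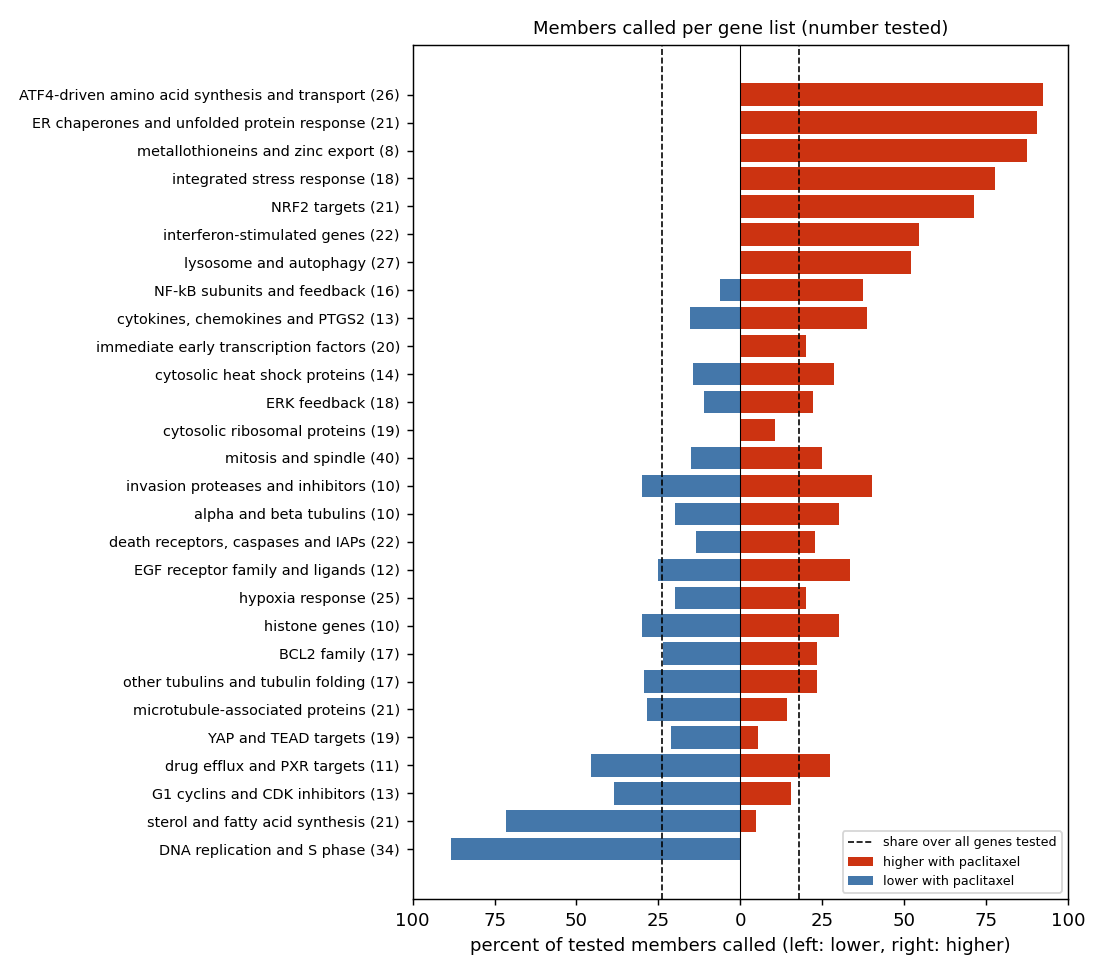
Share of the tested members of 28 gene lists called higher (right, red) or lower (left, blue) with paclitaxel in normoxia, with the number of members tested in parentheses. Dashed lines mark the shares over all 11021 genes, 17.8% higher and 23.9% lower. Amino acid supply, ER chaperones, metallothioneins and the integrated stress response stand at the top, and DNA replication, with 88.2% of its members lower, at the bottom.

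The 12 largest rises among genes whose arrays did not overlap spanned stress-induced and interferon-induced genes. LAMP3, a lysosomal membrane glycoprotein, read 3.61, 4.53 and 4.60 on the control arrays and 9.54, 8.58 and 9.87 on the paclitaxel arrays (log2 signal). The groups were far apart, a 33.9-fold rise (log2 change 5.08 ± 0.34 SE, n = 3 arrays per group, limma adjusted p = 5.78e-08). CH25H, which makes 25-hydroxycholesterol, rose from 2.97, 3.95 and 3.04 to 6.78, 9.58 and 6.99, with paclitaxel array 2 standing above the rest of its group, and its rise of 4.47 was 3.57 without that array. RSAD2, the antiviral enzyme viperin, was at 2.29 on every control array and at 6.15, 6.25 and 6.29 with the drug, at least 8.48-fold higher when set against the presence threshold. The transcribed pseudogene NMRAL2P, below the presence threshold on 2 of 3 control arrays, rose by 4.55 on the log2 scale against those measured signals. The dehydrogenase DHRS2 rose by 4.15, the exonuclease ISG20 by 4.0, the calcium-binding protein S100P by 3.77 and the oligoadenylate synthetase relative OASL by 3.76. All but 1 of these 12 were also called with arrays 1 and 2 alone, the exception being GDF15, described below.

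Among the 12 largest falls, SHROOM2, an actin-binding regulator of cell shape, read 9.12, 9.13 and 9.35 on the control arrays and 3.82, 2.94 and 3.29 on the paclitaxel arrays. This 57.7-fold fall (log2 change -5.85 ± 0.20 SE, limma adjusted p = 1.18e-10) took the gene to the edge of detection. The transcription factor SOX4 fell 20.8-fold, from 10.43, 10.10 and 10.41 to 5.93, 5.78 and 6.10, and its 3 other probe sets changed by -5.12 to -2.93. LFNG, a glycosyltransferase that modifies Notch receptors, fell 18.8-fold, and the adhesion receptor ADGRF1 fell 30.9-fold. Further falls were seen for SERTAD4 (log2 change -3.95), the WNT pathway ligand NDP (-3.82, with 2 of 3 paclitaxel arrays below the presence threshold), the activin subunit INHBB (-3.51) and the cell cycle regulator RGCC (-3.34). The phosphodiesterase PDE8B, the ubiquitin ligase subunit ASB2 and the zinc finger gene ZNF488 dropped below the presence threshold on all 3 paclitaxel arrays, at least 12.3-fold, 8.67-fold and 7.02-fold lower. For the sodium channel subunit SCNN1A, at least 10.2-fold lower, the other probe set changed by -0.08, so its 2 probe sets disagreed.

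**Figure D2:**
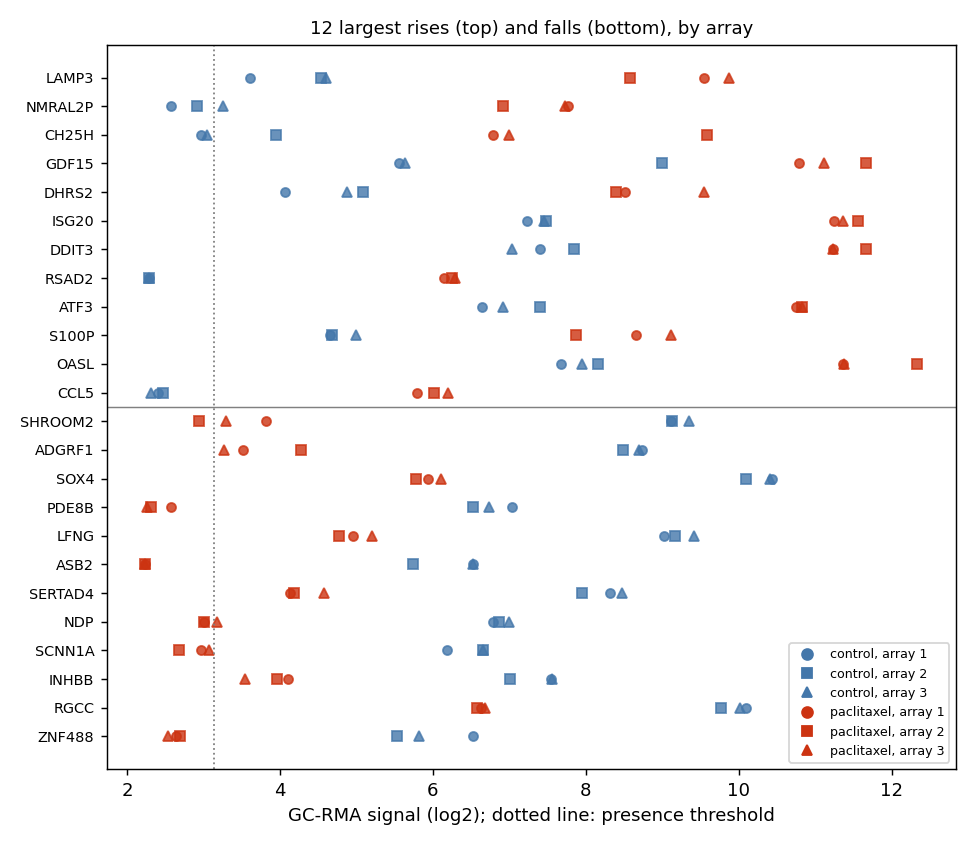
GC-RMA signal (log2, horizontal) of the 12 genes with the largest rises and the 12 with the largest falls on the 3 control arrays (blue) and the 3 paclitaxel arrays (red), with the replicate number as the symbol. The dotted line is the presence threshold, 3.14. The colours do not overlap in any row, and GDF15 has 1 control array, the second, at 9.0 beside 5.56 and 5.63.

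Genes of the integrated stress response rose together. Of the 20 listed, 18 were tested, 14 rose (77.8%) and none fell, with 17.8% and 23.9% over all genes. The median log2 change was 2.21. With arrays 1 and 2 alone, 9 rose, where 9.31% of all genes did, and the median was 2.13. DDIT3, the transcription factor CHOP, read 7.40, 7.85 and 7.04 on the control arrays and 11.23, 11.67 and 11.23 on the paclitaxel arrays, a 15.4-fold rise (limma adjusted p = 0.00017). ATF3, its partner in the second wave, rose 14.1-fold, from 6.64, 7.40 and 6.91 to 10.75, 10.83 and 10.83. ATF4 itself read 12.87, 12.59 and 12.77 on the control arrays and rose 2.79-fold to 14.22, 14.14 and 14.31. For these 3 genes the control and paclitaxel arrays did not overlap.

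The other called members followed. SESN2, which restrains mTORC1, rose by 3.47 ± 0.73 (log2 change ± SE), the cysteine-forming enzyme CTH by 3.45 ± 0.42 and the chromatin protein NUPR1 by 3.33 ± 0.28. The glutathione-degrading enzyme CHAC1 rose by 3.22 and PPP1R15A, the subunit that reverses the translation block, by 2.91. GDF15, a secreted stress cytokine, read 5.56, 9.0 and 5.63 on the control arrays and 10.79, 11.66 and 11.11 with the drug. Its rise of 4.46 passed the test by title (limma adjusted p = 0.00082) and missed it with arrays 1 and 2 alone (3.95, adjusted p = 0.0582), and it was 5.59 without control array 2 and 3.88 without control array 1. CEBPB and NFIL3 missed the test (1.77 and 1.80, adjusted p = 0.0609 and 0.114), and in a fit of the 6 arrays alone both passed it (adjusted p = 0.000686 and 0.000288). ATF5 did not pass either test, with a log2 change of 0.05.

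The enzymes and carriers that ATF4 controls rose almost without exception. Of 29 listed, 26 were tested and 24 of these rose (92.3%, with 17.8% over all genes). The median log2 change was 0.98, and 22 rose with arrays 1 and 2 alone (9.31% of all genes did). SLC3A2, the heavy chain shared by several amino acid exchangers, read 9.82, 10.15 and 9.86 on the control arrays and 12.88, 12.87 and 12.90 on the paclitaxel arrays, a 7.68-fold rise (limma adjusted p = 2.69e-09). ASNS, which makes asparagine, rose 6.68-fold, from 11.12, 11.51 and 11.30 to 14.05, 13.96 and 14.13. The first enzyme of serine synthesis, PHGDH, rose from 5.77, 5.82 and 5.83 to 8.46, 8.01 and 8.94, and the mitochondrial PCK2 rose by 2.12.

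The same list holds the rest of the serine and one-carbon route and the enzymes that load amino acids on transfer RNA. PSAT1, the second step of serine synthesis, rose by 1.27 and PSPH, the last step, by 0.64. The mitochondrial folate enzymes MTHFD2 and SHMT2 rose by 1.39 and 0.88. All 8 aminoacyl-tRNA synthetases tested from this list rose, from 0.55 for NARS1 to 1.78 for WARS1. Synthetases outside the list were not counted. The members without a call were SLC38A2, a neutral amino acid carrier (0.57 ± 0.67), and ALDH18A1, of proline synthesis (-0.14 ± 0.10). In the fit of the 6 arrays alone 25 of the 26 members rose, SLC38A2 among them (22.4% of all genes did).

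Chaperones and folding enzymes of the endoplasmic reticulum (ER) also rose. All 21 members with a named probe set were tested, 19 rose (90.5%) and none fell, with 17.8% and 23.9% over all genes. The median log2 change was 1.19, and 16 rose with arrays 1 and 2 alone (9.31% of all genes did). DNAJB9, a co-chaperone that restrains the sensor IRE1, read 9.92, 10.26 and 10.13 on the control arrays and 13.37, 13.31 and 13.61 on the paclitaxel arrays, a 10.0-fold rise (limma adjusted p = 0.00018). ERO1B, an oxidase that drives disulfide formation, rose 4.75-fold from 3.97, 3.01 and 3.86 to 6.06, 5.50 and 6.02. HSPA5, the main ER chaperone BiP, went from 13.99, 14.02 and 13.95 to 15.10, 14.99 and 15.20. This 2.16-fold rise stood on an already high level, and the control and paclitaxel arrays did not overlap.

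The IRE1 gene ERN1 rose by 2.92 ± 0.82, though not with arrays 1 and 2 alone (2.58, adjusted p = 0.0925). The ER chaperone HYOU1 rose by 1.55 ± 0.11 and MANF, a small protein of the ER that can be secreted, by 1.53 ± 0.12. The degradation factors EDEM1 and SEL1L rose by 1.43 and 1.32. The disulfide isomerases PDIA3, PDIA4 and PDIA6 rose by 1.16, 1.19 and 0.69, the lectin chaperone CANX rose by 0.38, and its soluble relative CALR did not pass the test (0.12, adjusted p = 0.69). XBP1, the factor spliced by IRE1, measured 1.46 higher with an adjusted p of 0.122 in the fit of 18 arrays and 0.000624 in the fit of the 6 arrays alone. Its control arrays read 9.95 to 10.23 and its paclitaxel arrays 11.39 to 11.76.

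NRF2 is the transcription factor of the oxidant response. Of its 21 tested targets (24 listed), 15 rose (71.4%) and none fell, with 17.8% and 23.9% over all genes. The median was 0.93, and 10 rose with arrays 1 and 2 alone (9.31% of all genes did). HMOX1, which degrades heme, read 7.46, 7.10 and 7.09 on the control arrays and 10.02, 9.41 and 9.87 on the paclitaxel arrays, a 5.86-fold rise (limma adjusted p = 2.64e-06). AKR1C1, a ketosteroid reductase, rose 8.11-fold, although probe sets of the near-identical AKR1C genes can share signal. SRXN1, which repairs peroxiredoxins, rose 4.41-fold and OSGIN1 4.02-fold. Paclitaxel array 2 was the lowest of the 3 for AKR1C1, HMOX1 and SRXN1. GCLM, the modifier subunit of the enzyme that limits glutathione synthesis, was tight in controls at 11.47, 11.46 and 11.48 and read 12.97, 12.61 and 12.99 with the drug. The classic target NQO1 did not pass the test (0.18, adjusted p = 0.292), with 13.23, 12.87 and 13.37 on the control arrays and 13.42, 13.32 and 13.26 with the drug.

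Interferon-stimulated genes, which cells turn on through STAT factors or directly through IRF factors, rose in part. Of 26 listed, 22 were tested, 12 rose (54.5%) and none fell, with 17.8% and 23.9% over all genes. The median was 1.14, and 10 rose with arrays 1 and 2 alone (9.31% of all genes did). ISG20 read 7.23, 7.48 and 7.45 on the control arrays and 11.25, 11.56 and 11.36 on the paclitaxel arrays, a 16.0-fold rise (limma adjusted p = 7.99e-08). The antiviral IFIT2 rose 10.2-fold, from 9.23, 9.42 and 9.22 to 12.37, 12.90 and 12.63, and the RNA sensor IFIH1 rose 7.93-fold. ISG15, a ubiquitin-like modifier, rose 5.22-fold from an already high 11.56, 11.60 and 11.56 to 13.71, 14.21 and 13.96. For each of these 4 genes paclitaxel array 2 was the highest of its group.

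The list split by gene. IFIT1 rose by 3.12, IFI44 by 2.93, MX1 by 2.47 (2 of its 3 control arrays below the presence threshold) and IFIT3 by 2.05. IFI44L was below the presence threshold on all control arrays and at least 3.68-fold higher with the drug. IFI27, IFI6, IFI35, IFIT5, OAS2, OAS3, IRF7 and RIGI changed by 0.02 to 0.44 and BST2 by -0.40, all without a call. IRF1, an interferon-induced factor, read 8.06, 8.38 and 8.32 on the control arrays and 8.69, 9.78 and 8.32 on the paclitaxel arrays, which overlap.

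Cytokine genes differed between arrays of one group. Of 22 listed, 13 were tested, 5 rose and 2 fell. These are 38.5% and 15.4%, with 17.8% and 23.9% over all genes. With arrays 1 and 2 alone 2 rose and 2 fell, where 9.31% and 15.4% of all genes did. PTGS2, the inducible prostaglandin synthase, read 3.84, 4.64 and 3.86 on the control arrays and 7.37, 7.90 and 7.79 on the paclitaxel arrays, an 11.9-fold rise (limma adjusted p = 0.000372). The chemokine CCL5 was below the presence threshold on all control arrays, at 2.41, 2.47 and 2.31, and read 5.79, 6.02 and 6.20 with the drug, at least 7.27-fold higher. Both genes were called with arrays 1 and 2 alone.

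Control array 2 was the highest control array for all 13 tested cytokine genes. The mean of the list relative to controls was 1.18 on it and -0.57 and -0.61 on the other control arrays. Paclitaxel array 2 also had the highest list mean of its group, 2.10 beside 0.91 and 1.37. Leaving out only 1 of these 2 arrays takes the array with the highest list mean from 1 group alone. CXCL8, a neutrophil chemokine, read 6.98, 12.17 and 7.22 on the control arrays and 8.77, 11.55 and 9.82 on the paclitaxel arrays, so the groups overlapped, and the gene had no call (1.26, adjusted p = 0.477). Without control array 2 its change was 2.94 (limma adjusted p = 0.0469), and without paclitaxel array 2 it was 0.50 (limma adjusted p = 0.83). IL1A read 2.44, 6.79 and 2.72 in controls and 5.06, 4.72 and 4.99 with the drug. Its change was 0.94 with all arrays, 2.34 (limma adjusted p = 0.0154) without control array 2 and 1.05 (limma adjusted p = 0.496) without paclitaxel array 2. IL24 and CXCL3 rose by 2.88 and 3.18 by title, 3.89 and 3.74 without control array 2, and neither passed with arrays 1 and 2 alone (adjusted p = 0.168 and 0.17). CXCL2 rose by 2.82 by title (adjusted p = 0.0226), and its call was absent without control array 1 (2.29), without control array 3 (2.47) and without paclitaxel array 2 (2.39), while it was 3.69 without control array 2. CXCL3 was 3.97 without paclitaxel array 1 and 2.50 without paclitaxel array 2. IL11 fell by 1.12 and the prostaglandin E synthase PTGES by 0.89.

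**Figure D3:**
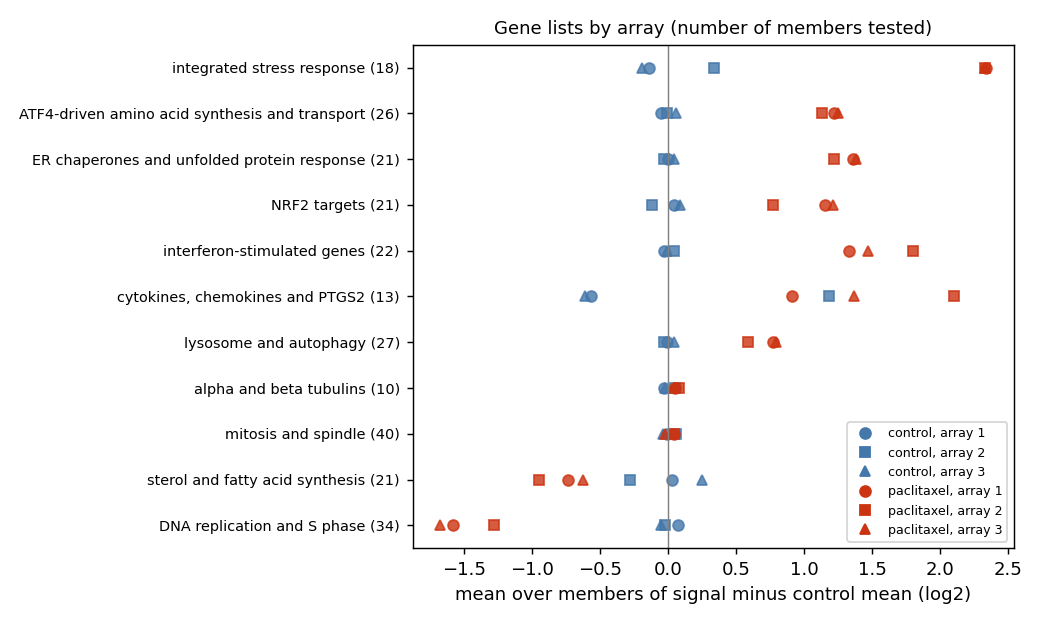
Mean over the tested members of 11 gene lists of the log2 signal minus the gene's control mean (horizontal), for each control array (blue) and paclitaxel array (red), with the replicate number as the symbol. The integrated stress response lies at 2.33 to 2.34 on the 3 paclitaxel arrays and DNA replication at -1.68 to -1.28, while for cytokines control array 2, at 1.18, lies among the paclitaxel arrays.

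Genes for DNA replication fell as a block. Of 35 listed, 34 were tested, 30 fell (88.2%) and none rose, with 23.9% and 17.8% over all genes. The median log2 change was -1.54. The same number, 30, fell with arrays 1 and 2 alone (15.4% of all genes did). CCNE2, the late G1 cyclin E2, read 9.45, 9.49 and 9.42 on the control arrays and 6.23, 6.60 and 6.16 on the paclitaxel arrays, an 8.71-fold fall (limma adjusted p = 3.17e-06). GINS2, a subunit of the replicative helicase, fell 5.89-fold, from 9.67, 9.68 and 9.54 to 6.72, 7.65 and 6.84. E2F1, the activator of S phase genes, went from 8.06, 8.24 and 8.0 to 5.0, 6.66 and 5.0, and E2F8, a repressor of the same family, fell by 2.32. Paclitaxel array 2 was the least reduced for GINS2 and E2F1.

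All 6 subunits of the MCM2-7 helicase fell, from 1.02 for MCM7 to 2.20 for MCM2 on the log2 scale, and the replication initiator MCM10 fell by 1.93. UHRF1, which guides maintenance DNA methylation, fell by 2.22 ± 0.13, the polymerase clamp PCNA by 1.21 ± 0.10 and the ribonucleotide reductase subunit RRM2 by 1.67 ± 0.16. The 4 members without a call were the licensing factors CDC6 and ORC6, the clamp loader subunit RFC5 and the S and G2 phase cyclin CCNA2, with changes of -0.21, 0.12, -0.29 and -0.08. CCNA2 read 11.34, 11.42 and 11.36 on the control arrays and 11.32, 11.14 and 11.41 on the paclitaxel arrays.

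Mitotic genes did not move as a block, although mitosis is where the drug is known to act. All 40 listed genes were tested, and 24 had no call. Of the 40, 10 rose (25%) and 6 fell (15.0%), with 17.8% and 23.9% over all genes. Their median was 0.00. With arrays 1 and 2 alone 5 rose and 4 fell, where 9.31% and 15.4% of all genes did. CCNB1, the cyclin that drives entry into mitosis, read 13.31, 13.30 and 13.19 on the control arrays and 13.78, 13.71 and 13.77 on the paclitaxel arrays, a 1.40-fold rise (limma adjusted p = 0.000911). The chromosomal passenger CDCA8 rose 1.73-fold and the microtubule depolymerase KIF2C 1.65-fold. In the other direction the kinetochore subunit SPC25 fell 2.10-fold, the transcription factor FOXM1 1.70-fold and the mitotic kinase CDK1 1.46-fold. PLK1, BIRC5 and the kinesin KIF20A had no call, at 0.38, -0.14 and -0.02.

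**Figure D4:**
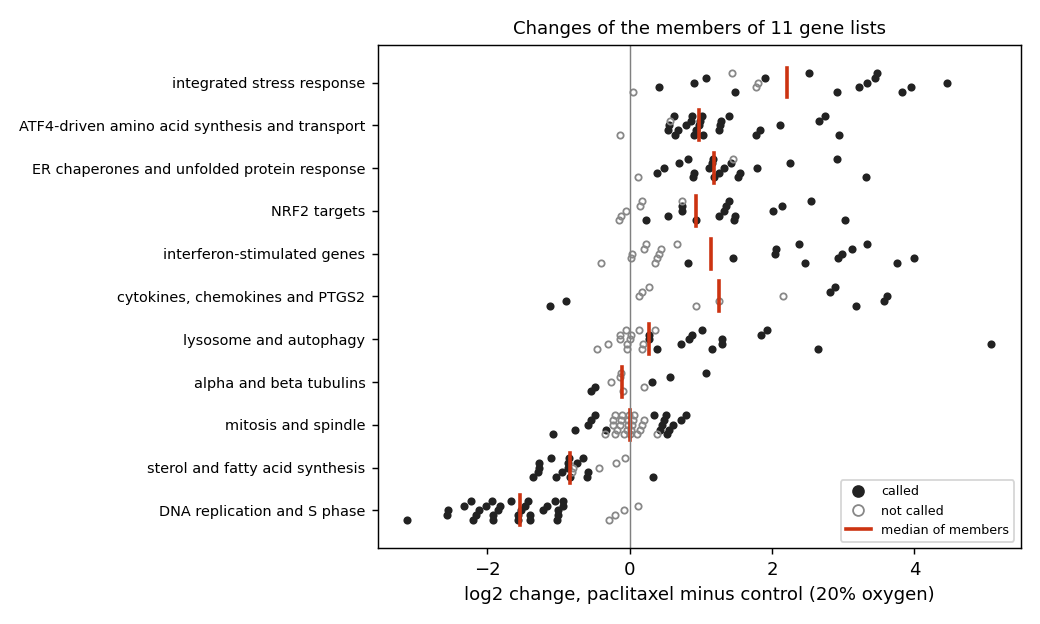
Log2 change with paclitaxel in normoxia (horizontal) of every tested member of 11 gene lists, filled where called in limma at an adjusted p under 0.05 and open where not, with the median of each list as a red bar. The medians run from 2.21 for the integrated stress response to -1.54 for DNA replication, and the mitotic genes spread on both sides of 0.

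Among the tubulins, the drug's target family, changes were small and went both ways. Of 18 α- and β-tubulin genes listed, 10 were present and tested, and their median was -0.10. Of these, 3 rose (30%) and 2 fell (20%), with 17.8% and 23.9% over all genes. TUBB2A read 11.42, 11.54 and 11.17 on the control arrays and 12.41, 12.38 and 12.56 on the paclitaxel arrays, a 2.11-fold rise (limma adjusted p = 0.000403). TUBB6, a divergent β-tubulin, rose 1.48-fold from 11.80, 11.60 and 11.59 to 12.25, 12.18 and 12.26. TUBB3, the neuronal isotype often discussed in taxane resistance, rose 1.25-fold by title (adjusted p = 0.0201) and had no call with arrays 1 and 2 alone (0.35, adjusted p = 0.105). Its call was also absent without control array 1 (0.31), control array 3 (0.32) or paclitaxel array 2 (0.28). TUBA4A fell 1.45-fold, from 11.78, 11.95 and 11.80 to 11.24, 11.44 and 11.24.

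The other 5 tubulins tested did not pass. TUBB changed by -0.12, TUBA1B by -0.09, TUBA1C by -0.13, TUBA1A by -0.26 and TUBB4B by 0.21. TUBB2B, at 2.74 to 3.78 over the 6 arrays, lay at the presence threshold, and its call (-0.49, adjusted p = 0.0367) was absent with arrays 1 and 2 alone (adjusted p = 0.28) and without control array 2 (-0.31), control array 3 (-0.50), paclitaxel array 1 (-0.46) or paclitaxel array 3 (-0.39). Probe sets of TUBB, TUBB2B, TUBB3, TUBB4B, TUBA1B and TUBA1C are of a kind that can match more than 1 transcript, so their signals may be shared within the family.

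Proteins that modify or bind microtubules included larger changes than the tubulins. Of 17 tested genes of other tubulins and tubulin folding, 4 rose (23.5%) and 5 fell (29.4%), and of 21 microtubule-associated proteins 3 rose (14.3%) and 6 fell (28.6%), near the 17.8% and 23.9% over all genes. TUBE1, ε-tubulin of the centriole, read 7.59, 7.60 and 7.36 on the control arrays and 9.43, 9.33 and 9.77 on the paclitaxel arrays, a rise of 1.99 on the log2 scale (limma adjusted p = 3.75e-06). MAP2, a stabilizing protein known from neurons, rose from 3.37, 3.26 and 3.22 to 5.76, 4.97 and 6.14, and the polyglutamylase TTLL7 rose by 1.06. STMN3, of the stathmin family that binds free tubulin dimers, fell by 1.41, the polyglutamylase TTLL5 by 0.87 and the plus-end protein MAPRE1 by 0.44.

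Cell cycle inhibitors and cyclins of G1 were mixed. CDKN1A, the inhibitor p21, read 9.95, 9.74 and 9.78 on the control arrays and 11.80, 11.36 and 11.88 on the paclitaxel arrays, a 3.62-fold rise (limma adjusted p = 4.09e-05). CCND2, cyclin D2, rose 3.31-fold, while the pocket protein RBL1 fell 3.69-fold, CCND1 1.95-fold and CDK2 1.69-fold.

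In the BCL2 family of apoptosis regulators 17 of 20 listed genes were tested, 4 rose and 4 fell (23.5% each), near the 17.8% and 23.9% over all genes. PMAIP1, the BH3-only protein NOXA, read 9.67, 9.97 and 9.90 on the control arrays and 12.13, 12.50 and 12.20 on the paclitaxel arrays, a 5.38-fold rise (limma adjusted p = 4.3e-08). BCL2L2, a survival protein, rose 2.09-fold, the survival protein BCL2L1 (BCL-XL) fell 1.41-fold, and BID, which links death receptors to mitochondria, fell 2.14-fold. BCL2 had no call (0.11) and stayed near 4.27 to 4.63, and MCL1 had none in the fit of 18 arrays (0.71, adjusted p = 0.483) but passed in the fit of the 6 arrays alone (adjusted p = 0.00394).

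Among 22 tested death receptor, caspase and inhibitor genes, 5 rose (22.7%) and 3 fell (13.6%), with 17.8% and 23.9% over all genes. Over all 60 probe sets of these genes, 21 were called higher and 5 lower, with 18.5% and 21.9% over all probe sets. The count thus depended on the choice of 1 probe set per gene. The receptor FAS rose 2.06-fold, from 6.39, 6.61 and 6.80 to 7.53, 7.76 and 7.64, and the TRAIL receptor TNFRSF10A rose 1.86-fold. TNFRSF10D, a TRAIL receptor with a shortened death domain, fell 2.50-fold, from 8.16, 8.15 and 8.44 to 7.15, 6.88 and 6.77. CASP6 fell by 0.95 and CASP2 by 0.68.

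Sterol and fatty acid synthesis fell. Of 27 listed genes 21 were tested, 15 fell (71.4%) and 1 rose (4.76%), with 23.9% and 17.8% over all genes. The median was -0.83. With arrays 1 and 2 alone 14 fell and none rose, where 15.4% and 9.31% of all genes did. FASN, fatty acid synthase, read 11.42, 10.99 and 12.04 on the control arrays and 10.30, 9.83 and 10.25 on the paclitaxel arrays, a 2.56-fold fall (limma adjusted p = 0.000758). LSS, which closes the sterol ring, fell 2.43-fold, from 12.46, 12.07 and 12.74 to 11.28, 10.98 and 11.16. ACACA, which makes malonyl-CoA, and ACSS2, which activates acetate, fell 2.41-fold each. The array numbered 2 was the lowest of its group for FASN in both groups, and the groups did not overlap. The one riser, SC5D, changed by 0.33 (adjusted p = 0.0493), and its call was absent without control array 1 (0.37), control array 2 (0.22), paclitaxel array 1 (0.31) or paclitaxel array 3 (0.24).

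Part of the lysosome and autophagy list rose. Of 27 tested genes, each by its brightest probe set, 14 rose (51.9%) and none fell, with 17.8% and 23.9% over all genes. The median was 0.28, and 8 rose with arrays 1 and 2 alone (9.31% of all genes did). Over all 53 probe sets of these genes, 24 were called higher and 5 lower, with 18.5% and 21.9% over all probe sets. Beside LAMP3, the ubiquitin-like autophagy proteins GABARAPL1 and MAP1LC3B rose 6.25-fold and 3.58-fold, the first from 6.37, 6.12 and 6.33 to 8.87, 8.62 and 9.27. The autophagy receptor SQSTM1 rose 3.80-fold, from 12.43, 12.51 and 12.56 to 14.38, 14.19 and 14.70, although its other probe sets ranged from -0.03 to 2.98. The lysosomal proteases CTSB and CTSD and the membrane protein LAMP1 had no call, at 0.02, -0.03 and 0.13, and the protease CTSL rose 2.46-fold.

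Transcription factors of the immediate early class are short-lived, and 4 of 20 tested rose (20%, with 17.8% over all genes). EGR1 read 9.58, 10.04 and 9.34 on the control arrays and 12.85, 12.93 and 12.87 on the paclitaxel arrays, a rise of 3.23 (limma adjusted p = 0.00145), and FOS rose by 2.90. The arrays of 14 of the 20 lay apart on the high side and those of 2 on the low side (27.8% and 32.7% of all genes did), and 13 passed in the fit of the 6 arrays alone (22.4% of all genes did). MYC changed by 1.04 with an adjusted p of 0.325 in the fit of 18 arrays and 0.00574 in the fit of 6.

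The effect was compared with that of the same drug dose at 1% oxygen, on arrays that share no control with those above. Of 1961 genes higher with paclitaxel in normoxia, 1540 (78.5%) were called higher in hypoxia too, where 22.2% of all genes were. Of 2631 lower genes, 1928 (73.3%) were called lower in hypoxia, where 22.8% of all genes were, and 19 genes were called in opposite directions. LAMP3 rose by 5.13 in hypoxia and SHROOM2 fell by 5.33. The integrated stress response list had 13 members higher in hypoxia, the interferon list 12, and the replication list 31 lower.

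A difference between the 2 oxygen levels was tested directly. It passed for 129 of 11021 genes, 90 with the more positive change in hypoxia (0.817%) and 39 with the more negative one (0.354%). By probe set it passed for 160 (0.679%) and 94 (0.399%), 254 in all, and for 9 with arrays 1 and 2 alone. TMEM45A, a transmembrane protein of the study's hypoxia selection, read 4.62, 4.50 and 5.79 on the normoxic control arrays and 7.31, 6.87 and 7.53 on the normoxic paclitaxel arrays. Its rise of 2.27 in normoxia stood against -0.34 in hypoxia, where the control mean was already 11.34 (difference -2.61, limma adjusted p = 0.0111, and 0.0949 with arrays 1 and 2 alone). LOX, which crosslinks collagen, changed by 1.22 in normoxia and -0.58 in hypoxia. CCNB1 rose by 0.48 in normoxia and 1.42 in hypoxia, where its control mean was 12.18 beside 13.19 to 13.31 on the normoxic control arrays.

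The qRT-PCR genes of the study were chosen on these samples, so their direction is not independent evidence. The study reports that qRT-PCR bore out the array changes of TMEM45A, STC1, FAM26F (CALHM6 here) and GDF15. It reports no change by qRT-PCR for S100A10, and does not tie these results to a single comparison. On the arrays STC1, a secreted glycoprotein, rose by 0.84, S100A10 fell by 0.25 and CALHM6 fell by 0.59. With arrays 1 and 2 alone, STC1 and S100A10 had no call (adjusted p = 0.168 and 0.0539). The call of STC1 was absent without control array 3 (0.68), and that of S100A10 without paclitaxel array 1 (-0.23) or 2 (-0.22), and another S100A10 probe set changed by 1.40. HIF1A, the oxygen-regulated subunit of the hypoxia factor, had no call (-0.21). Of 25 tested genes of the hypoxia list 5 rose and 5 fell (20% each, near the 17.8% and 23.9% over all genes), and the efflux pump gene ABCB1 was not present.

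**Figure D5:**
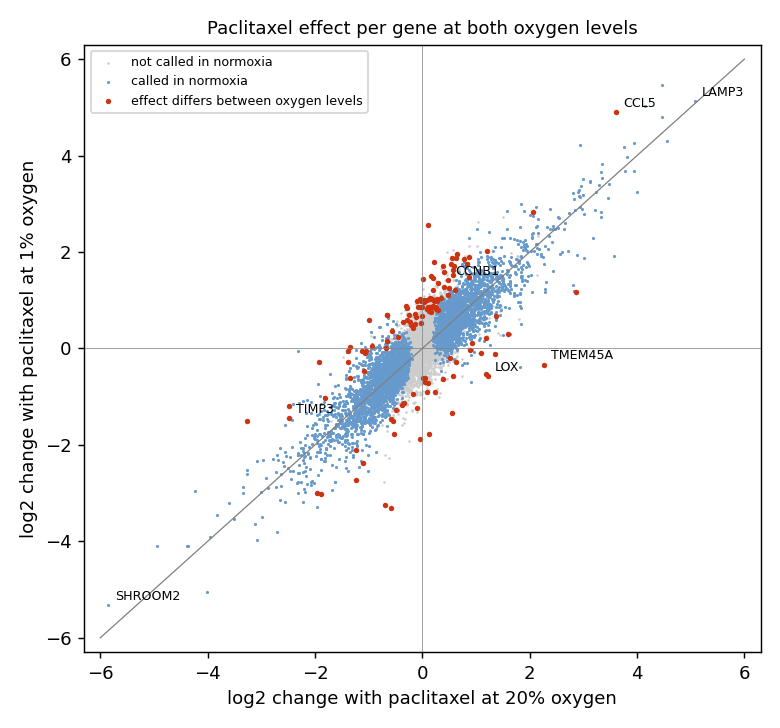
Log2 change with paclitaxel at 20% oxygen (horizontal) and at 1% oxygen (vertical) for the 11021 genes tested, with genes called in normoxia in blue and the 129 genes whose effect differed between the oxygen levels in red. The grey diagonal marks equal change. LAMP3 and SHROOM2 lie close to it at opposite ends, and TMEM45A and LOX, with 2.27 and 1.22 in normoxia, lie below it.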

How the data were processed

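MDA-MB-231 RNA was measured on Affymetrix HG-U133 Plus 2.0 arrays. Normalization by the authors was GC-RMA, and the deposited values are log2 signals (2.23 to 16.57 here). The GC-RMA version is not given in the sources used here. Arrays were grouped by title. The study describes 3 independent experiments per condition. The p-values measure the spread between arrays of the same condition, pooled over all 6 conditions, and the number of arrays limits the precision. The median SD over probe sets was 0.108 for N_CTL, 0.153 for N_TAX and 0.171 for the normoxic epirubicin arrays. In a fit of the 6 arrays alone 22.4% of genes were called higher and 26.3% lower. A probe set was tested when above a linear signal of 8.84 on at least 2 of 3 arrays of either group. Log2 values were fitted with limma 3.58.1 in R 4.3.3, with files read by the R package data.table (version 1.17.8), on all 18 arrays with 6 conditions, two-sided, with Benjamini-Hochberg adjustment at 0.05. For each gene the brightest probe set on average over the 6 arrays was used, among those with 1 symbol (41091 probe sets had 1 symbol, 1801 several and 11721 none here). The test was checked on simulated data, in which 76% of changes of 1 on the log2 scale and 96% of changes of 2 were recovered, with 10 false calls among 23572 probe sets. The simulation altered 50 probe sets per size of change and left the rest unchanged, while 40.4% were called in the measured data. Its rates therefore do not give the power or the error of the comparison itself.

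Members and the 35 gene lists were chosen with earlier results of these data known. Named genes were the 12 largest rises and 12 largest falls without overlap of arrays and alike in arrays 1 and 2, up to 5 called members per list by size of change, every measured α- and β-tubulin, the genes measured by qRT-PCR and a fixed set of stress, cycle and death genes. Genes named beyond these were chosen after their values were seen. Some items are not reported here. Alternatives were arrays 1 and 2 only, the source names, single arrays left out, a replicate block, other fits, presence filters and scalings. A t-test with equal variances and counts over all probe sets of each listed gene were run too.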

Additional observations from a re-analysis of the deposited data

Results flagged for a closer look

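For 12 of the named genes the test of the difference between the paclitaxel effect at 1% oxygen and at 20% oxygen passed with all arrays (limma, adjusted over all probe sets). A positive value is a more positive change in hypoxia. The largest was for TMEM45A, at -2.61. The mitotic genes CCNB1, PLK1, KIF20A and BIRC5 had more positive changes in hypoxia, by 0.93, 1.31, 0.86 and 0.65. Their hypoxic control means were 12.18, 9.25, 10.78 and 11.35. The normoxic control arrays read higher, at 13.19 to 13.31, 10.42 to 10.49, 11.48 to 11.53 and 11.90 to 11.95. With the drug the hypoxic means were 13.60, 10.94, 11.63 and 11.86. The normoxic paclitaxel arrays read 13.71 to 13.78, 10.59 to 11.02, 11.41 to 11.56 and 11.66 to 11.91. For these 4 genes the normoxic changes were 0.48, 0.38, -0.02 and -0.14. Of the 40 mitotic genes, 23 were called higher with the drug in hypoxia, where 22.2% of all genes were. In normoxia 10 were, with 17.8% of all genes, and the difference of these counts was not tested. The transferrin receptor TFRC differed by 2.47, TIMP3 by 1.03 and ATF5 by 0.93. CCL5 differed by 1.29, with mean control signals below the presence threshold at both oxygen levels, so the size of its rise is not known at either level. The change was more negative in hypoxia for LOX, by -1.80, for PDIA4, by -0.99, and for CALHM6, by -0.88. With arrays 1 and 2 alone each of these 12 differences kept its sign, and TFRC alone passed the test. The hypoxic arrays numbered 3 carry the same conflict between title and source name.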

How the results depend on the processing

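The conflict in the labels of the arrays numbered 3 moved the results most among the alternatives run. With arrays 1 and 2 alone 5716 probe sets were called, 2337 higher and 3379 lower, 4367 were alike in hypoxia and 9 differed between oxygen levels. With the arrays numbered 3 grouped by source name limma called 0 probe sets, 0 higher and 0 lower (298 at an unadjusted p under 0.05), 0 alike in hypoxia, 0 with a difference (52 unadjusted) and 0 list members. In that grouping the log2 change turned sign or reached 0 for BID (0.18), CCNB1 (-0.35), CCND1 (0.29), CDCA8 (-0.05), CDKN1A (-0.05), CHAC1 (-0.28), ERN1 (-0.05), FAS (-0.16), GCLM (0.00), IFIT3 (-0.01), SC5D (-0.15), SESN2 (-0.22), STC1 (-0.08), TNFRSF10A (-0.03), TNFRSF10D (0.17) and TUBB3 (-0.02). Leaving out 1 array at a time gave 7907 to 8886 calls, 3445 to 4197 higher and 4337 to 4689 lower, 6160 to 6600 alike in hypoxia and 282 to 305 of 317 list members. The count of differences, 254 with all arrays, was 145, 142 and 120 without control arrays 1, 2 and 3, 132 and 136 without paclitaxel arrays 1 and 3, and 296 without paclitaxel array 2, and it was 395 after quantile normalization. The methods' t-test at its unadjusted threshold called 5306 probe sets, 2481 higher and 2825 lower, and a further limit of 2-fold left 2597, 1239 and 1358. The cause of these shifts was not tested, beyond the fewer arrays or stricter limit that some of them use. Arrays with the same number correlated at 0.064 to 0.079 in their deviations from the group means, below 0.1 in each pair. Each array correlated best with its own number. The study averaged ratios taken within its independent experiments, and does not say whether the array numbers mark those experiments. The main fit did not pair the arrays, and these correlations do not settle whether they are paired. With the replicate block the calls were 9536 instead of 9514. Changes of 0.5 on the log2 scale were recovered in 24% of simulated cases, in a simulation where few probe sets changed. The rate in the measured data is not known, and smaller changes may be missed.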

Other observations

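Gene groups outside the comparisons above were also looked at. Of 8 tested metallothionein and zinc genes, 7 were higher with paclitaxel by title (87.5%, with 17.8% over all genes). With arrays 1 and 2 alone 7 were higher too, where 9.31% of all genes were. Their median log2 change was 0.42, and the metal-responsive factor MTF1 rose by 0.80 and the metallothionein MT1F by 0.67. Among 10 tested genes of invasion proteases and their inhibitors, 4 rose (40%) and 3 fell (30%), with 17.8% and 23.9% over all genes. The median of this list was -0.07. The collagenase MMP1 rose by 1.82 and the urokinase receptor PLAUR by 1.62, while the protease inhibitor TIMP3 fell by 2.48. Genes named here were chosen after their values were seen.

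TFRC, the transferrin receptor, read 12.93, 13.01 and 12.99 on the normoxic control arrays and 12.98, 13.30 and 12.94 on the normoxic paclitaxel arrays. In hypoxia its mean was 9.38 without the drug and 11.94 with it. The difference between the paclitaxel effects was 2.47 (limma adjusted p = 0.00224), and 2.81 with arrays 1 and 2 alone (adjusted p = 0.0059). TFRC was singled out after its values were seen.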
